A study of Mus musculus with 14 samples.

Results

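Tbr1, Bcl11b, Fezf2, Cux1, Cux2, Rorb, Sox5 and Foxp2 encode transcription factors by which projection neurons of the neocortical layers are told apart. These 8 genes were taken by name as cortical layer factors, with earlier results of these data known. All 8 were found among the 26594 different gene symbols matched to the 59796 loci of the deposited gene table. They were measured by RNA-seq in 14 libraries of hippocampus, dissected from mouse embryos of E16 to E18. The 4 groups were 189N3 embryos (n = 3), which carry an extra copy of Dyrk1a on a bacterial artificial chromosome, the wild-type littermates of 189N3 (n = 3), Dp(16)1Yey embryos (n = 4), which carry an extra copy of the stretch of mouse chromosome 16 from Lipi to Zbtb21 with Dyrk1a inside it, and the wild-type littermates of Dp(16)1Yey (n = 4). Both extra copies are inherited through the germ line, so they are not restricted to neurons, and each model is a single mouse line. Sex, litter and preparation batch are not given in the labels. The methods count as many embryos per genotype as there are libraries, and the p-values measure the spread between these libraries.

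In the developing cortex, progenitors of the pallium give rise first to deep-layer and then to upper-layer glutamatergic neurons. Fezf2 and Bcl11b (also called Ctip2) direct the neurons that project below the cortex, Tbr1 those that project to the thalamus, and Sox5 the timing of deep-layer fates, while Foxp2 marks layer 6. Cux1 and Cux2 mark the upper layers and Rorb layer 4. Several of the 8 are also used outside the neocortex: Bcl11b in hippocampal pyramidal and granule neurons, and Bcl11b and Foxp2 in the projection neurons of the striatum.

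The results below turn most on Rorb, with the largest log2 fold change of the 8 in both models, and on Fezf2, with the smallest spread between libraries. The 250 bases before their RefSeq start sites (GRCm38.p6, minus strand, at chr19:19111197-19111446 for the first of 2 Rorb entries and chr14:12345866-12346115 for Fezf2) are shown 5′ to 3′ for that contrast. Capitals mark matches on either strand to the GC box GGGCGG and the CCAAT box CCAAT.
Rorb: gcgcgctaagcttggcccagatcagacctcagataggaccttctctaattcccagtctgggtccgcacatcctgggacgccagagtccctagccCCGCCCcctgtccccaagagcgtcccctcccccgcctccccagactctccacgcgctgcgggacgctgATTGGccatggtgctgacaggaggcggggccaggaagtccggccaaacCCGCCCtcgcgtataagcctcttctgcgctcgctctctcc
Fezf2: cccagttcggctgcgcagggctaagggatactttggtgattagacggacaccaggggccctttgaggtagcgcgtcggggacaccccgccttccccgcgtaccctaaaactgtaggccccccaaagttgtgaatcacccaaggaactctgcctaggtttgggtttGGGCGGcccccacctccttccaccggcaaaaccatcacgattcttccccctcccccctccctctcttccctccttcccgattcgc
Of the base pairs shown, 66.0% were G or C at Rorb and 61.2% at Fezf2, against a median of 52.4% in the 32851 windows of the RefSeq table. The second Rorb entry (chr19:19001118-19001367), not shown, stood at 39.2% and held neither box. The Fezf2 window lies inside the span of its gene given below, while the Rorb window shown lies just outside. That Rorb window held 2 matches to GGGCGG and 1 to CCAAT, and the Fezf2 window 1 match to GGGCGG. These letters occur in 32.7% and 33.8% of all windows, so their presence does not set either gene apart.

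All 8 genes were detected in each of the 14 libraries. The values in the gene table are fragments per locus divided by 1 size factor per library, called scaled fragments here, and the libraries held between 20809135 and 29098454 fragments. The tissue label was checked against marker genes: the hippocampal genes Prox1 (161 to 856 scaled fragments) and Zbtb20 (1789 to 7734) and the pallial neuron gene Neurod6 (8965 to 20161) were present throughout, but so were genes of the striatum, such as Drd1 (64.3 to 383). Dyrk1a, the gene added in 189N3, stood at 4248, 3938 and 5877 in the 3 transgenic libraries against 2448, 2977 and 2126 in their littermates, without overlap. The Dp(16)1Yey libraries held 4781, 2124, 3600 and 3044 scaled fragments of Dyrk1a against 2488, 2397, 3171 and 3175. Over 65 genes of the duplicated stretch (chr16:75540514-97962622), the median log2 difference from the littermate mean was 0.68, 0.62 and 0.41 in replicates 0, 2 and 3 but 0.16 in replicate 1, which is therefore called here the library labelled Dp(16)1Yey replicate 1. Without the duplication, the other libraries lay between -0.12 and 0.11, except 189N3 replicate 2 at 0.32. That library also had the largest share of fragments on named loci (83.7%, against 63.5% to 76.5% in the others) and a median difference of 0.17 over all loci. The Dp(16)1Yey littermates formed 2 nearly alike pairs: replicates 0 and 1 differed by 1.65 times and replicates 2 and 3 by 2.0 times counting noise, against 31.5 to 36.5 times across the pairs. Every member's value in Dp(16)1Yey below rests on these libraries. The tests and counts of overlap there take each littermate as a separate library.

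Levels were compared between genes per kilobase of exon. Fezf2 was the highest at 328 scaled fragments per kilobase (mean of 14 libraries), followed by Bcl11b at 316, Sox5 at 244 and Tbr1 at 237. Cux1 stood at 108 per kilobase, and Rorb (55.7), Foxp2 (41.0) and Cux2 (40.4) were the lowest. The 4 genes at the top are deep-layer factors and 2 of the 3 at the bottom mark the upper layers. Ordering the 4 group means within each gene gave 24 pairs of neighbours, of which 2 differed by more than the larger of their standard deviations. These were Fezf2 in the Dp(16)1Yey littermates over 189N3, the single pair whose libraries did not overlap, and Rorb in 189N3 over its littermates.

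**Figure D1:**
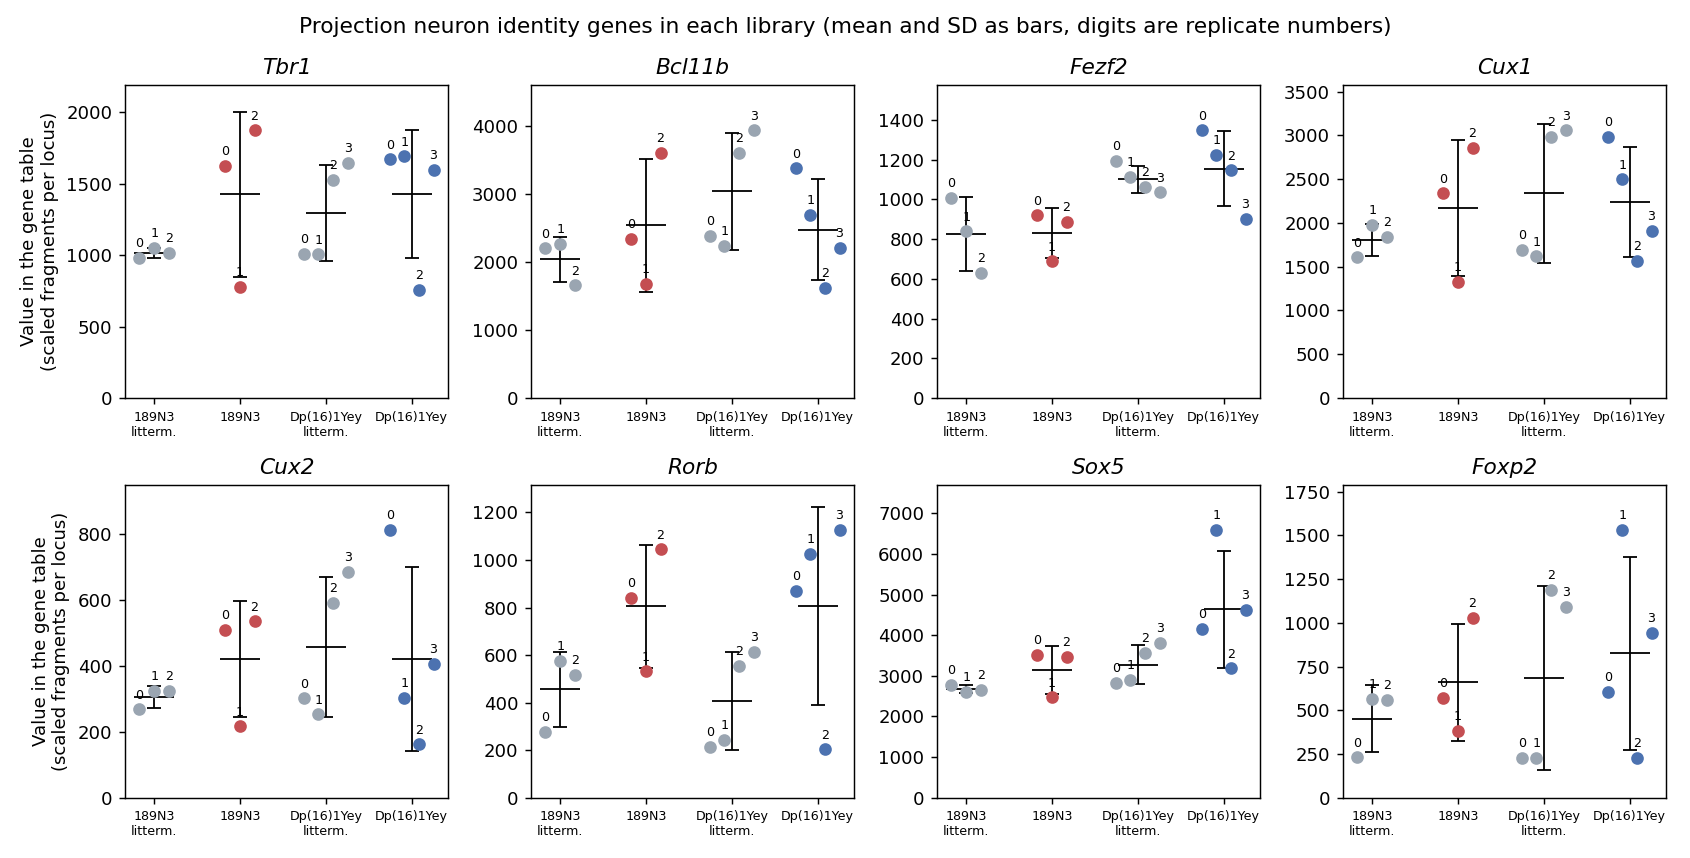
Scaled fragments per library (linear axis from 0) for each of the 8 genes in the 4 groups, with group mean and SD as black bars and replicate numbers as digits. Transgenic and littermate libraries overlap for all 8 genes in both models, and in the Dp(16)1Yey littermates replicates 2 and 3 lie above 0 and 1 for 7 of the 8.

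Fezf2 (chr14:12342094-12348189, minus strand, GENCODE vM21 on GRCm38, as are all gene positions here), the selector of subcerebral projection neurons, was the steadiest of the 8. Its 189N3 libraries held 920, 688 and 886 scaled fragments against 1007, 839 and 632 in the littermates. The Dp(16)1Yey values were 1348, 1222, 1146 and 902 against 1193, 1115, 1062 and 1036. The groups overlapped throughout, and the log2 fold change was 0.02 (standard error 0.25) in 189N3 and 0.05 (standard error 0.16) in Dp(16)1Yey. The sign in 189N3 turned under quantile normalization.

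Bcl11b (chr12:107910403-108003602, minus strand), which acts downstream of Fezf2 in the same neurons, held 2346, 1683 and 3606 scaled fragments in 189N3 and 2203, 2270 and 1659 in the littermates. Replicates 0 and 2 of 189N3 lay above all 3 littermates, replicate 2 by far the most, and replicate 1 inside their range. For Dp(16)1Yey they were 3383, 2692, 1626 and 2211 against 2390, 2234, 3611 and 3942. Here the 2 highest libraries were littermates, and the log2 fold change of -0.30 (standard error 0.26) had the opposite sign to that in 189N3 (0.26, standard error 0.28). Between the models the values differed by -0.56 (standard error 0.41), with an adjusted p of 0.922 for the interaction in limma. Without 189N3 replicate 2 the 189N3 value was -0.03.

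Tbr1 (chr2:61802930-61814114, plus strand), the T-box factor of corticothalamic and early-born neurons, stood at 1625, 775 and 1872 scaled fragments in 189N3. Its littermates lay close together at 982, 1052 and 1015, so 1 transgenic library lay below and 2 above all of them. Among Dp(16)1Yey libraries the values were 1669, 1690, 759 and 1596 against 1007, 1004, 1525 and 1642 in the littermates. The low library was replicate 2, and the others lay near the upper littermate pair. Fold changes on the log2 scale were 0.39 (standard error 0.30) in 189N3 and 0.11 (standard error 0.28) in Dp(16)1Yey, or 0.39 without Dp(16)1Yey replicate 2.

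Sox5 (chr6:143828425-144781977, minus strand), the SoxD factor that delays corticofugal fates, held 3513, 2467 and 3470 scaled fragments in 189N3 and 2785, 2598 and 2646 in the littermates. Its Dp(16)1Yey libraries held 4147, 6582, 3184 and 4621 against 2828, 2901, 3570 and 3799. Here 3 of the 4 transgenic libraries lay above all littermates, and the highest of all 14 was the library labelled Dp(16)1Yey replicate 1. For Dp(16)1Yey the log2 difference was 0.46 (standard error 0.22), with an unadjusted p of 0.0549 and an adjusted p of 0.909 in limma, and it was 0.28 with that library left out. In 189N3 it was 0.22 (standard error 0.23).

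The map sets 2 loci antisense to Sox5 exons, with a summed mean of 248% of that of Sox5 itself. These summed to 18361 and 18415 in replicates 1 and 3 of Dp(16)1Yey and to between 3073 and 10909 in the other 12 libraries, so the libraries that are highest for Sox5 are also highest for its antisense loci. Whether the counting used strand is not stated, and the part of these reads in the value of Sox5 was not tested.

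Foxp2 (chr6:14901349-15441977, plus strand), the forkhead factor of layer 6 and of striatal projection neurons, varied most of the 8. Its 189N3 libraries held 570, 382 and 1030 scaled fragments against 230, 565 and 562 in the littermates. Values in Dp(16)1Yey were 605, 1530, 230 and 943, against 229, 230, 1187 and 1090. The Dp(16)1Yey littermates thus differed 4.97-fold between their 2 pairs. The log2 fold change was 0.54 (standard error 0.38) in 189N3 and 0.39 (standard error 0.66) in Dp(16)1Yey, where it was -0.01 once the library labelled Dp(16)1Yey replicate 1 was left out. Without 189N3 littermate replicate 0 the 189N3 value was 0.11. The 2 loci antisense to Foxp2 had a summed mean of 368% of that of Foxp2, from 1150 to 6777 and highest in the library labelled Dp(16)1Yey replicate 1, and their part in its value was not tested either.

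Cux1 (chr5:136248135-136567490, minus strand), a homeodomain factor of upper-layer dendrite growth, held 2337, 1324 and 2856 scaled fragments in 189N3 and 1607, 1974 and 1838 in the littermates. The littermates lay inside the range of the transgenic libraries. The 4 Dp(16)1Yey libraries held 2981, 2497, 1571 and 1905, against 1692, 1618, 2981 and 3057. On the log2 scale Cux1 stood at 0.20 (standard error 0.28) in 189N3 and -0.04 (standard error 0.27) in Dp(16)1Yey, both within 1 standard error of 0. The sign turned without 189N3 replicate 2 (-0.03) and without Dp(16)1Yey replicate 2 (0.12).

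Cux2 (chr5:121856366-122050102, minus strand), its upper-layer homologue, held 510, 217 and 536 scaled fragments in 189N3, again around littermates at 269, 326 and 325. Cux2 in Dp(16)1Yey stood at 813, 302, 162 and 408 against 302, 253, 592 and 686. Both the highest and the lowest of the 14 libraries were Dp(16)1Yey. Log2 fold changes were 0.35 (standard error 0.32) in 189N3 and -0.23 (standard error 0.46) in Dp(16)1Yey, or 0.15 without Dp(16)1Yey replicate 2.

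Rorb (chr19:18930605-19111196, minus strand), the orphan nuclear receptor of layer 4, had the largest log2 fold change of the 8 in both models. Its 189N3 libraries held 842, 531 and 1044 scaled fragments against 278, 575 and 516. The lowest transgenic library lay inside the littermate range and the other 2 above it. This gave 0.83 on the log2 scale (standard error 0.32), with an unadjusted p of 0.0188 and an adjusted p of 1.00 in limma. The exact two-sided permutation test gave p = 0.20, where 3 against 3 libraries allow no less than 0.10. Leaving out each library in turn gave from 0.51 (without littermate replicate 0) to 1.10 (without 189N3 replicate 1).

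Within Dp(16)1Yey, Rorb stood at 871, 1026, 203 and 1125 scaled fragments against 214, 244, 554 and 615 in the littermates. Here 3 libraries lay above all littermates and replicate 2 below all of them. This amounted to 0.88 on the log2 scale (standard error 0.53), with an adjusted p of 0.909 in limma and an exact two-sided permutation p of 0.229. The value was 1.45 when Dp(16)1Yey replicate 2 was left out and 1.43 when the library labelled Dp(16)1Yey replicate 1 was left out with it. The values of the models differed by 0.05 (standard error 0.74). The study had selected Rorb in Dp(16)1Yey with its Cufflinks pipeline, at a false discovery rate under 0.05, which Rorb did not pass in limma here. That selection used these same libraries and is no independent evidence. The locus antisense to Rorb summed to 363 and 348 in replicates 1 and 3 of Dp(16)1Yey and to at most 181 elsewhere.

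None of the 8 genes passed an adjusted p of 0.05 in limma in 189N3, in Dp(16)1Yey or in the difference between the models, and neither did any other locus (0% called of 35899, 36024 and 36045 tested). At an unadjusted p under 0.05 stood 1 of 8 in 189N3 (Rorb), where 1.87% of all loci did so, and 0 of 8 in Dp(16)1Yey (3.53% of all loci) and in the difference (2.66%). edgeR on the recovered fragments called 0 loci in each comparison, with 691, 1321 and 906 at an unadjusted p under 0.05. DESeq2 called 15, 8 and 0 loci and none of the 8 genes. In no member were the transgenic and littermate libraries apart, where 4.98% of all loci were so in 189N3 and 2.45% in Dp(16)1Yey.

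By sign alone, the log2 fold change was above 0 for 8 of 8 members in 189N3 (43.8% of all loci) with a median of 0.31, against -0.04 over all loci. That count fell to 5 of 8 and the median to 0.13 without 189N3 replicate 2, the library that stood apart above, and the median was 0.65 without replicate 1. For Dp(16)1Yey it was above 0 for 5 of 8 (54.9% of all loci), with a median of 0.08 against 0.03 over all loci. The count was also 5 of 8 with each nearly alike littermate pair averaged. The count moved between 4 and 7 of 8 and the median between -0.0076 (without replicate 0) and 0.27 (without replicate 2) as single libraries were left out, and it was 7 of 8 without Dp(16)1Yey replicates 1 and 2 together, an alternative chosen after the values were seen. The difference between the models was above 0 for 3 of 8 (57.2% of all loci). The adjusted p-values of members stayed at 0.368 or more in every alternative with a test.

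**Figure D2:**
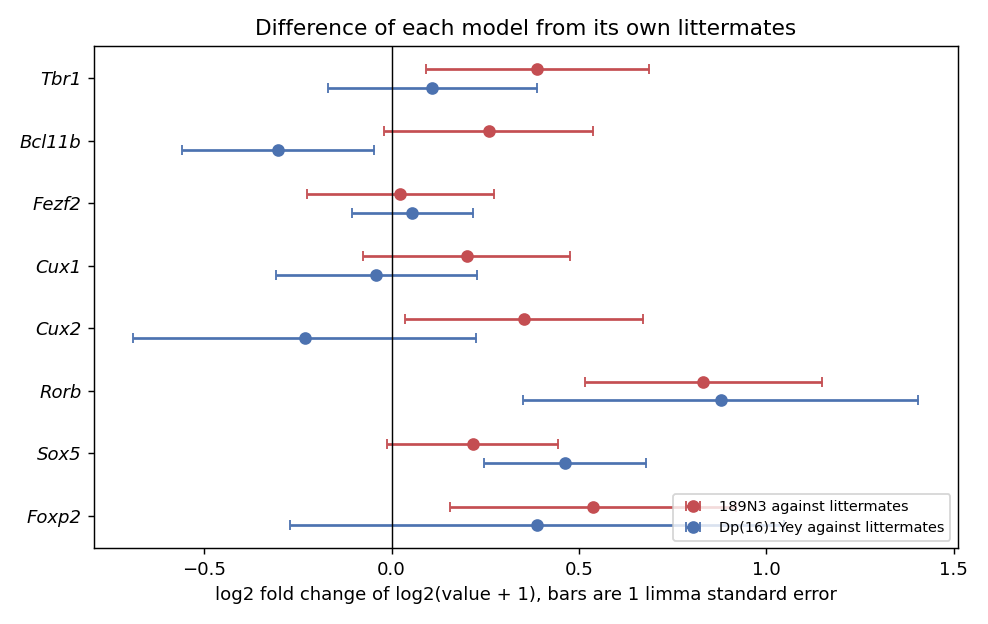
Log2 fold change of each of the 8 genes (horizontal axis, log2(value + 1) scale) in 189N3 (red) and Dp(16)1Yey (blue) against their own littermates, with 1 limma standard error as bars. Rorb is the rightmost gene in both models, at 0.83 and 0.88, and Fezf2 lies at 0.02 and 0.05.

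The spread between libraries of a group differed among these genes, and its source was not tested. Fezf2 had a within-group standard deviation of 0.23 on the log2 scale and Sox5 one of 0.30, at or below the median of 0.31 over the 19329 loci with a mean of at least 100. Bcl11b (0.43), Cux1 (0.44) and Tbr1 (0.48) lay between percentiles 81.1 and 87.5 of these loci. Cux2 (0.73), Rorb (0.84) and Foxp2 (1.07) lay at percentiles 97.5, 98.5 and 99.3. From the lowest to the highest of the 14 libraries, Fezf2 spanned 2.13-fold and Foxp2 6.69-fold.

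The members tended to be low in the same libraries. Of the 8, 6 were among their lowest 3 values in 189N3 replicate 1 and 6 in Dp(16)1Yey replicate 2. Replicate 0 and the library labelled replicate 1 of Dp(16)1Yey each held 5 of the members' highest 3 values, and the upper pair of Dp(16)1Yey littermates 4 each. Between the littermate pairs of Dp(16)1Yey the ratio of replicates 2 and 3 to 0 and 1 was 0.91 for Fezf2, 1.29 for Sox5, 1.58 for Tbr1, 1.63 for Bcl11b and 1.82 for Cux1. It was 2.30 for Cux2 and 2.55 for Rorb. Fezf2 alone was not higher in replicates 2 and 3.

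Marker lists of other regions also differed between these libraries. The summed level of 13 striatal genes (all found, none at 0 in any library) was 901 and 956 scaled fragments in Dp(16)1Yey littermates 0 and 1 and 3918 and 3913 in 2 and 3. Its range was 814 to 2462 in Dp(16)1Yey, 1173 to 2409 in 189N3 and 989 to 1329 in the 189N3 littermates. Of the defining striatal genes, Drd2 ran from 1.73 to 84.9. The sum of 8 hippocampal field genes went the other way, with 17793 and 16857 in littermates 0 and 1, 9089 and 9643 in 2 and 3, and 18276 in Dp(16)1Yey replicate 2. It was 3585 in the library labelled Dp(16)1Yey replicate 1 and 5188 in replicate 3, 2 of the 3 libraries with the highest Rorb. The third, 189N3 replicate 2, held 11498, in a group that ran from 7332 to 14520. Dp(16)1Yey replicate 0, where Rorb was 871, held 11356. The part of tissue composition in the members' values was not tested, and in bulk tissue fewer cells of a type cannot be told apart from less RNA per cell.

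**Figure D3:**
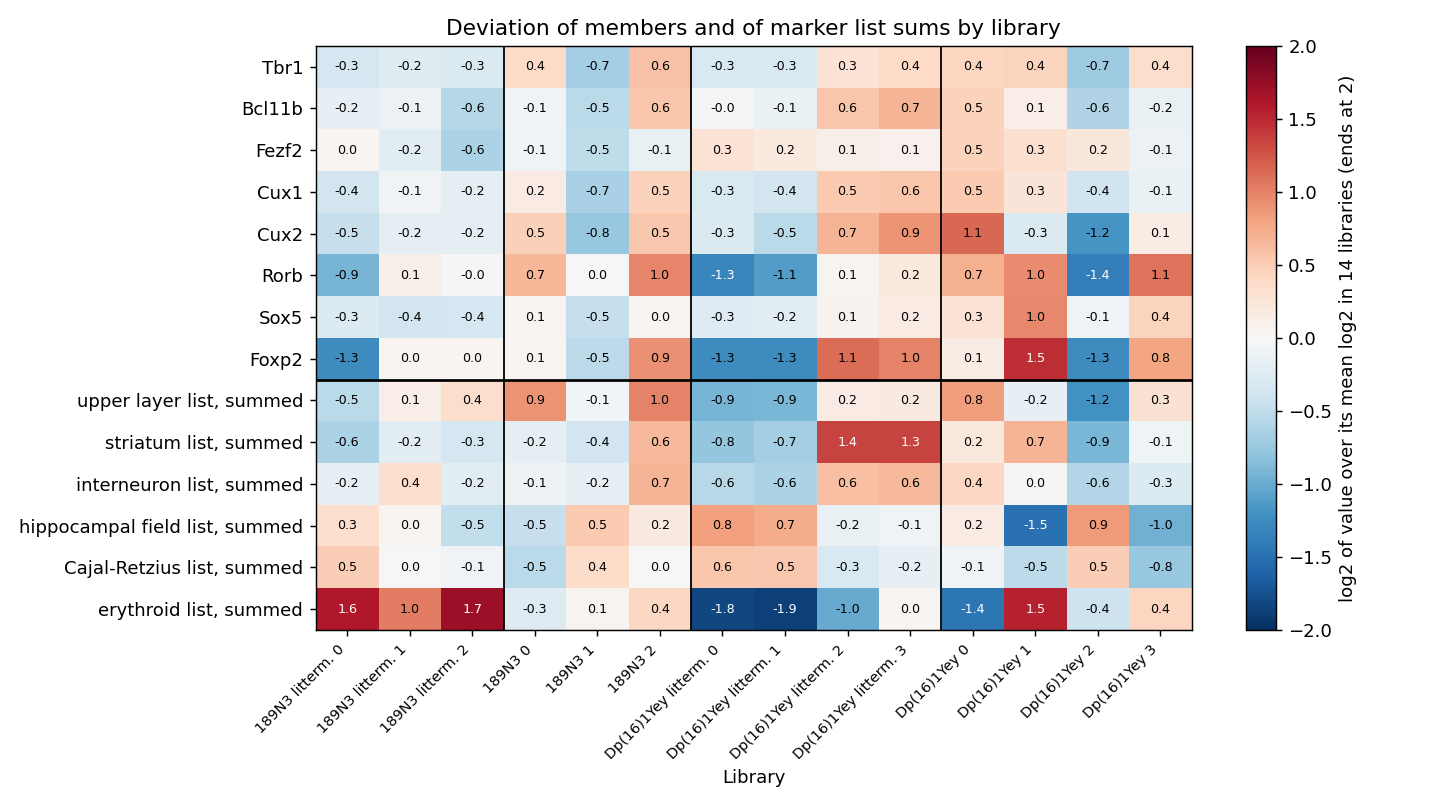
Each cell gives the log2 value of a library minus the mean over the 14 libraries, for the 8 genes (above the thick line) and for summed marker lists (below it), with libraries as columns and groups split by lines. Red is above and blue below the mean. Dp(16)1Yey replicate 2 and littermates 0 and 1 are blue for Rorb and Foxp2 and red for the hippocampal field sum.

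Among the 8, the ratio of Bcl11b to Cux1 was the steadiest over the 14 libraries (SD of the log2 ratio 0.19), although they mark different layers, and that of Fezf2 to Foxp2 the least steady (1.04). Over 11237 other named loci with a mean of at least 100, the gene most like Rorb by this measure was Sla, the Src-like adaptor, with an SD of 0.16, while the next, Hs3st5, stood at 0.31. Foxp2 was most like Drd1 (Drd1a in the map, 0.37), the dopamine receptor of direct-pathway striatal neurons, and then 2610100L16Rik (0.39). Fezf2 came with Slc50a1 (0.10) and Mdc1 (0.12), and Cux1 with B3gat3 (0.10) and Dbndd1 (0.10). For Cux2 the nearest were Eml2 (0.15) and Scube1 (0.15), and for Sox5 they were Rai14 (0.12) and Acss1 (0.14). Tbr1 was nearest to Peli2 (0.17) and Fhod3 (0.18), and Bcl11b to Prcc (0.13) and Pitpnc1 (0.14). The libraries share composition and depth across all genes, so these are descriptions only.

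The isoform table splits the 8 loci into 50 assembled isoforms, of which 38 had a mean of at least 10. None passed an adjusted p of 0.05 in either model, where 0.0366% of isoforms in 189N3 and 0.0214% in Dp(16)1Yey did. At an unadjusted p under 0.05 stood 1 of 38 in 189N3 (2.56% of all isoforms) and 3 of 38 in Dp(16)1Yey (3.48%). In 11 of the 50, from 5 of the genes, the estimate was under 5 scaled fragments in at least 1 library and at least 100 in another. For Foxp2, the isoform TCONS_00076117 had 474 in 189N3 replicate 2 and under 5 in 6 of the 14 libraries, so shares within these loci are unstable estimates.

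A minor assembled isoform of Tbr1 (TCONS_00050478, 11.8% of the locus) stood out after its values were seen. In 189N3 it took 21.3%, 21.4% and 19.8% of Tbr1, against 11.2%, 14.9% and 13.5% in the littermates. The Dp(16)1Yey shares were 6.26%, 7.81%, 29.4% and 13.2%, against 4.29%, 4.79%, 3.35% and 3.31%. The groups did not overlap in either model, so the exact two-sided permutation test gave the smallest p the design allows (0.10 and 0.0286). Neither p is evidence, as the isoform was picked for these values. The second also counts the nearly alike Dp(16)1Yey littermates as separate libraries. The littermates of the 2 models did not overlap either, and the largest share was in the library where Tbr1 as a whole was lowest. Its log2 fold change in scaled fragments was 1.05 (standard error 0.37) and 1.68 (standard error 0.27), with adjusted p-values of 1.00 and 0.373 in limma over all isoforms. Of 56585 isoforms tested in both models, 29 (0.0513%) had all transgenic libraries above all littermates in both, as 3.08% of isoforms had in 189N3 and 1.43% in Dp(16)1Yey.

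**Figure D4:**
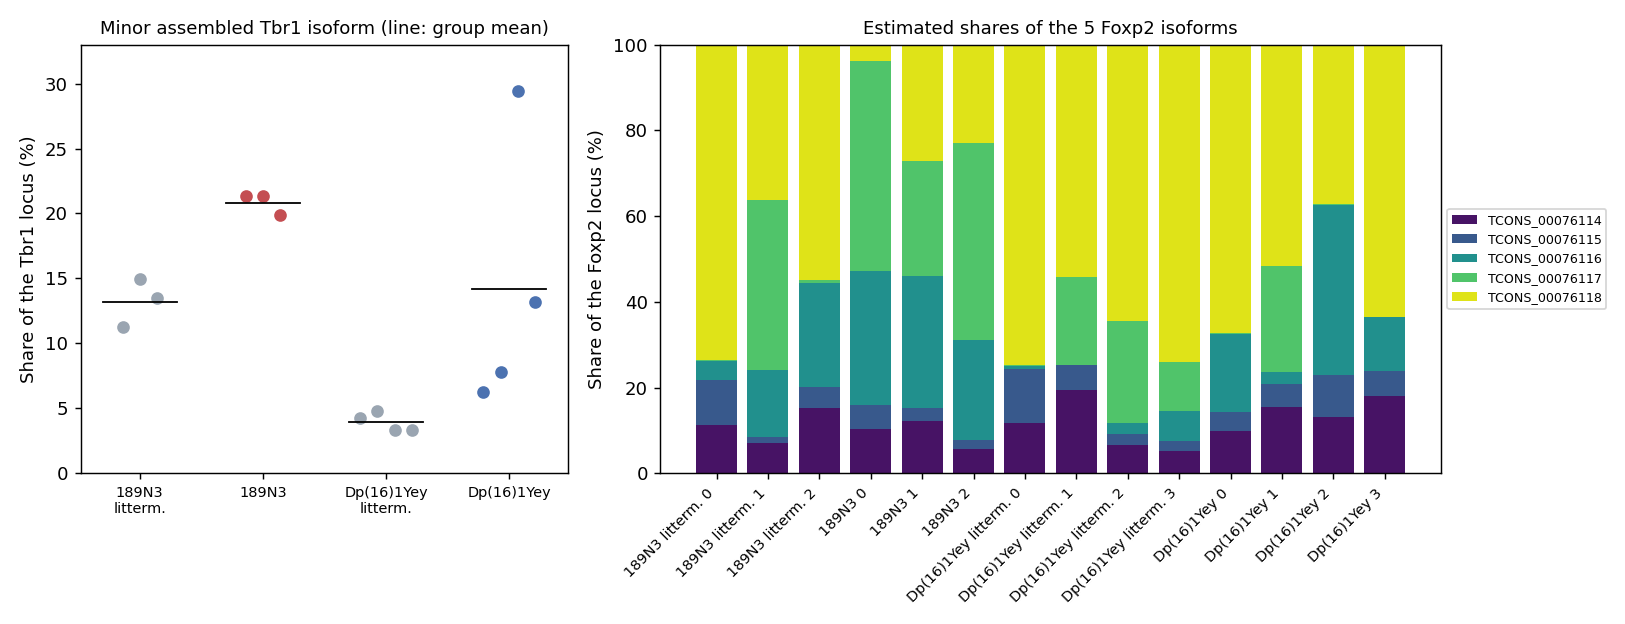
Left, share of the minor Tbr1 isoform in the Tbr1 locus (percent) by library, with group means as lines, higher in each transgenic library than in each of its own littermates. Right, estimated shares of the 5 Foxp2 isoforms in each library as stacked bars that sum to 100%, which differ between libraries of 1 group.

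Other genes of the same layers were read from lists. Of 9 further upper-layer genes, all 9 had a log2 fold change above 0 in 189N3 (43.8% of all loci), with a median of 0.44. In limma 3 had an unadjusted p under 0.05 (1.87% of all loci) and 0 an adjusted one. The count at an unadjusted p was 6 without 189N3 replicate 1 and 0 without 189N3 replicate 0 or littermate replicate 0. With 189N3 replicate 2 left out, 7 of 9 were above 0. The median was 0.75 without replicate 1. Among them Pou3f2, a POU factor of upper-layer neurons, stood at 0.99 on the log2 scale (standard error 0.39). Of the same 9, 6 were above 0 in Dp(16)1Yey (median 0.11), but 3 without replicate 0 (median -0.13) and 7 without replicate 2 (median 0.43), and the median was at most 0.03 without replicate 3 or littermate replicate 0 or 1. Plxnd1, a semaphorin receptor, stood at -0.84 (standard error 0.38) in Dp(16)1Yey, with an unadjusted p of 0.0485.

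Of 12 listed deep-layer genes, 11 were found. The median was 0.35 in 189N3, with 10 of 11 above 0, and it was 0.16 without replicate 2 and 0.57 without replicate 1. Among them were Syt6, a synaptotagmin of layer 6, at 0.81 (standard error 0.29) and Hs3st4, a heparan sulfate sulfotransferase, at 0.67 (standard error 0.37). For Dp(16)1Yey 3 of 11 were above 0 (median -0.11), but 6 of 11 without replicate 2 (0.03) and 1 of 11 without replicate 0 (-0.42). Crim1 stood there at -0.52 (standard error 0.32) and Zfpm2 at -0.36 (standard error 0.23). The subplate list, with 7 of 8 genes tested, had medians of 0.05 and -0.18, which turned to -0.16 without 189N3 replicate 2 and 0.06 without Dp(16)1Yey littermate replicate 3. Within it, Nxph4 stood at -0.60 (standard error 0.23) in Dp(16)1Yey. The pallial neuron list had medians of 0.17 and 0.07, with ranges of 0.04 to 0.40 and -0.03 to 0.10 as single libraries were left out. There Neurod6, a neuronal bHLH factor, had all 4 Dp(16)1Yey libraries (10971 to 20161) above all 4 littermates (8965 to 10816), and so had Zbtb18 (21934 to 27065 against 18409 to 21321), where 1.72% of loci were apart in this direction. On the log2 scale this was 0.60 (standard error 0.19) for Neurod6, with an adjusted p of 0.909 in limma, and 0.29 (standard error 0.14) for Zbtb18.

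The families of the members showed no common sign, with 4 of 8 tested relatives above 0 in 189N3 and 5 of 9 in Dp(16)1Yey (medians -0.02 and 0.01, both turning sign as single libraries were left out). Foxp1, a paralogue of Foxp2, had all 189N3 libraries (2033 to 2775) above their littermates (1590 to 2019), where 1.99% of loci were apart in this direction. It stood at 0.35 on the log2 scale (standard error 0.23), and at -0.36 (standard error 0.23) in Dp(16)1Yey. Tbx21, a relative of Tbr1, was near 0, with a mean of 0.57 scaled fragments, 8 libraries at 0 and no more than 2.02 in any. Fezf1, the paralogue of Fezf2, was low and uneven, with a mean of 37.8, 3 libraries at 0 and 174 in the highest, a Dp(16)1Yey littermate.

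Among lists for other cells, the striatal genes had a median of 0.22 in 189N3 and -0.34 in Dp(16)1Yey, and the interneuron genes 0.08 and -0.21, and these signs rested on single libraries. The striatal median was -0.47 without 189N3 replicate 2 (3 of 11 tested genes above 0), and in Dp(16)1Yey 0.03 and 0.04 without littermate replicates 2 and 3. Without 189N3 replicate 2 the interneuron median was -0.14, and without Dp(16)1Yey littermate replicate 3 it was 0.08. Of 12 striatal genes tested in 189N3, 2 had all transgenic libraries above all littermates (1.99% of all loci), and 3 had a log2 fold change below 0. Drd1 was 1 of those 2, at 202 to 336 against 81.4 to 158. The hippocampal field genes had medians of 0.10 (-0.12 to 0.24 as single libraries were left out) and -0.63 (-0.90 to -0.42), with 8 of 8 below 0 in Dp(16)1Yey and 7 of 8 when the library labelled Dp(16)1Yey replicate 1 or littermate replicate 3 was left out. The Cajal-Retzius genes had -0.22 (-0.34 to -0.03) and -0.37 (-0.61 to -0.20). The thalamus list had medians of -0.01 (-0.30 without littermate replicate 2 to 0.24 without 189N3 replicate 0) and -0.13 (-0.36 without the library labelled replicate 1 to 0.02 without replicate 3). The choroid plexus list had -0.10 in 189N3, from -0.61 without replicate 1 to 0.99 without littermate replicate 0, and -0.23 in Dp(16)1Yey, from -0.60 without littermate replicate 2 to 0.09 without littermate replicate 0. Blood and surface tissue lists were further from 0, except skin in Dp(16)1Yey: erythroid genes -1.35 and 1.25, skin genes -1.85 and 0.23 and connective tissue genes -1.44 and 1.39. In Dp(16)1Yey the erythroid, skin and connective tissue medians were 0.70, 0.05 and 0.84 when the library labelled replicate 1 was left out, and 1.75, 1.31 and 2.02 when replicate 0 was. The skin median in 189N3 was -0.91 without littermate replicate 2. Their sums ranged from 33790 to 54237 in the 189N3 littermates and 13859 to 22137 in 189N3 for the erythroid genes, and the part of this difference in the members' values was not tested. No gene of any list passed an adjusted p of 0.05 in limma in either model. At an unadjusted p under 0.05 in 189N3 stood 5 of 5 tested erythroid, 4 of 4 skin and 3 of 3 connective tissue genes. All of these were lower in 189N3, and 1.87% of all loci stood under that p. Without 189N3 littermate replicate 1, 2 erythroid, 2 skin and 2 connective tissue genes passed.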

How the data were processed

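Hippocampal RNA of mouse embryos was sequenced in 14 libraries, and groups and replicate numbers come from the sample titles. Libraries were made by the authors with a stranded total RNA kit. The authors mapped reads to mm10 with TopHat and Bowtie, merged Cufflinks assemblies over all samples and quantified the merged transcripts, correcting for biased fragments and reads that map to several places. The signal values the authors deposited in the gene table are fragments divided by 1 size factor per library: 100% of the values checked were whole within 0.1, at 0.816 to 1.21 units per fragment. The deposited isoform signal is an estimated share of them. The methods describe removal of transcripts outside GENCODE M4, but the tables also hold unnamed loci, which were kept.

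Symbols were assigned by matching each locus to the deposited map through the sum of its isoforms in 14 libraries. Of 49110 loci with a mean of at least 1, 49044 were matched and 17480 named. Pcp4, Neurod1, Rora and Hba-a1 had no locus of their own.

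Each model was compared with its littermates in limma 3.58.1 (R 4.3.3) on log2(value + 1), with an intensity trend and a mean of at least 10 over the libraries compared. P-values were adjusted over all loci by Benjamini-Hochberg at 0.05, and the models were compared as the interaction in 1 fit of 4 groups. Fold changes of low genes are understated on this scale. The plan allowed for raw counts, and as the values were scaled, edgeR 4.0.16 and DESeq2 1.42.0 on recovered fragments were alternatives. The test was checked on simulated data. Likeness is the SD over 14 libraries of the log2 ratio (Python 3.11.15). Levels per kilobase use the exons of GENCODE vM21 on GRCm38.

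Named were the 8 genes, Dyrk1a, the 2 genes most like each member, the 2 genes with the smallest p in a list and model, and markers, of which some are not reported here. Exceptions are marked as chosen after the values were seen. Lists were upper layer, deep layer, subplate, pallial neurons, relatives of the members, hippocampal field, striatum, interneuron, thalamus, Cajal-Retzius, choroid plexus, erythroid, skin and connective tissue. The members and lists were chosen with earlier results of these data known. Alternatives were other pseudocounts, filters and scalings, a replicate block, each library left out, no trend, averaged littermate pairs and, added later, 2 libraries left out together. The main analysis used all 14 libraries.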

Additional observations from a re-analysis of the deposited data

Results flagged for a closer look

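Tbr1 in Dp(16)1Yey replicate 2 stood at 759 scaled fragments, against 1596 to 1690 in the other 3 libraries of the group. Its gap to the next library was 0.90 of the range of the group, above Dixon's critical value for 4 samples. Of the 16 groups of 4 libraries checked over the 8 genes this was the single one. For independent libraries, chance alone is set to mark about 1 in 20. Some of these groups were the Dp(16)1Yey littermates, whose nearly alike pairs leave little room for a single outlying library. The 8 genes also share their libraries, so the count of flags cannot be set against that rate. Dp(16)1Yey replicate 2 also held 6 of the 8 genes among their lowest 3 values. There the sum of the hippocampal field genes was the highest of the 14 libraries at 18276. The part of this in the value of Tbr1 was not tested.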

How the results depend on the processing

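No member passed an adjusted p of 0.05 in any of 288 values under other settings or 232 with libraries left out. The sign turned in 4 and 34 of these. Fezf2 in 189N3 went from 0.02 to -0.0083 under quantile normalization and to -0.0024 in edgeR, and in the difference between the models from 0.03 to -0.020 under median-ratio scaling. Rorb in the difference went from 0.05 to -0.0057 under median-ratio scaling. Leaving out 1 library in turn gave, in 189N3, -0.027 to 0.52 for Bcl11b, -0.16 to 0.18 for Fezf2 and -0.033 to 0.52 for Cux1. In Dp(16)1Yey it gave -0.0013 to 0.39 for Tbr1, -0.025 to 0.17 for Fezf2, -0.20 to 0.12 for Cux1, -0.63 to 0.15 for Cux2 and -0.0080 to 0.90 for Foxp2. For the difference it gave -0.12 to 0.21 for Fezf2, -0.23 to 0.62 for Rorb and -0.55 to 0.37 for Foxp2. Without Dp(16)1Yey replicates 1 and 2 together, Cux1 stood at 0.093 and Cux2 at 0.45, and 1 locus passed the threshold.

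The count of loci past the threshold in 189N3 was 0, but 3 with median-ratio scaling, 15 in DESeq2 and 0 to 28 with a library left out (28 without littermate replicate 1, 2 without littermate replicate 0). In Dp(16)1Yey it was 8 in DESeq2 and 0 to 3 with a library left out (3 without the library labelled Dp(16)1Yey replicate 1), and in the difference 0 to 1, again without that library. Isoforms past the threshold in 189N3 numbered 22, but 3 and 14 with pseudocounts of 0.1 and 10, 172 with no filter, 0 with a mean of at least 100, 121 with no trend, 7 in 1 fit of all groups and 0 to 12 with a library left out (0 without 189N3 replicate 1 or 2 or littermate replicate 2). In Dp(16)1Yey they numbered 13, but 45 with no filter, 0 with a mean of at least 100, 34 with no trend, 3 in 1 fit of all groups and 4 to 43 with a library left out (43 without replicate 0, 4 without the library labelled Dp(16)1Yey replicate 1, 24 without replicate 2 and 27 without replicate 3). A higher minimum mean leaves fewer loci tested, and otherwise the cause was not tested.

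The replicate numbers did not pair the libraries, as deviations from group means of same-numbered libraries correlated between -0.581 and 0.009 over 19329 loci. With the number as a block, 72 loci passed in 189N3 and 0 isoforms in either model, and no member passed. None of the 8 genes had fewer than 162 scaled fragments in a library. Whether depth or the spread between libraries limits the tests was not tested.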
